A study of Mus musculus with 9 samples.

Results

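The genes described here are 34 integrin subunits and T cell adhesion molecules, listed by symbol: 18 integrin α subunits, 8 integrin β subunits, and the 8 other molecules Cd44, Selplg, Icam1, Icam2, Vcam1, Cd48, Alcam and L1cam. Of these, 33 were measured among 22180 genes compared in all, and Itga10 was not analysed here. RNA came from mouse T cells cultured under conditions that turn naive CD4 T cells into IL-17-secreting helper cells (Th17 cells), with 3 arrays for each of 3 genotypes. These were wild type (WT), SRG3 conditional knockout (SRG3 cKO) and RORγt knockout (RORγt KO). SRG3, encoded by Smarcc1, belongs to the core of Swi/Snf, a complex that moves nucleosomes to open chromatin. RORγt is a nuclear receptor on which the Th17 program depends. The labels name no promoter or Cre for the conditional knockout and give no age. In all groups CD4+CD25- CD44 low, CD62L high cells were sorted from spleen, then kept for 60 h on antibodies to CD3 and CD28 (10 µg/ml each). The medium held IL-6, TGF-β1 at 1 ng/ml, and antibodies that block IFN-γ or IL-4, each at 2 µg/ml. Replicates are labelled biological, but nothing says that they came from separate mice, and p-values then reflect only the variation among these 9 arrays, which may be technical.

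Integrins are surface receptors made of an α and a β chain, which bind matrix proteins or receptors on other cells after signals from inside the T cell open their ectodomain. On T cells, αL paired with β2 (LFA-1) holds the cell to the one presenting antigen and to vessel walls, α4 paired with β1 or β7 guides entry into inflamed tissue or gut, and αE paired with β7 holds cells in epithelium. Integrins with αv bind ligands that carry an RGD motif, among them latent TGF-β, the cytokine that in its active form drives Th17 differentiation. CD44 binds hyaluronan and rises as naive T cells become effector cells, and PSGL-1, the product of Selplg, is the ligand of the selectins.

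Values were the deposited log2 probe set intensities, with array medians of 7.12 to 7.14. The first principal component took 28.8% of the variance and placed WT array 1 at -1.38, apart from WT arrays 2 and 3 at -10.48 and -11.80. RORγt KO array 3 stood at 3.22 against 9.82 and 11.97 for its group, and SRG3 cKO array 1 at 3.98 against -3.27 and -2.06. Results are therefore given without single arrays too. Smarcc1 fell by 1.65 in SRG3 cKO (SE 0.091, limma adjusted p = 0.000207), in the direction of its label. The targeted gene of the RORγt KO was not used as a check here, while Il17a, the Th17 signature cytokine, fell by 3.85 there and fell by 2.19 in SRG3 cKO. All 7 measured T cell markers lay above the upper quartile of probe set means. Their mean level was 10.65 to 10.80 in WT, 10.81 to 10.97 in SRG3 cKO and 10.73 to 10.84 in RORγt KO arrays, so SRG3 cKO arrays lay above all WT arrays. Its part in the differences below was not tested. Of markers of other cells, 2 of 5 B cell, 8 of 9 myeloid, 2 of 4 dendritic, 4 of 4 platelet, 4 of 6 CD8 T and NK, and 4 of 6 stromal genes lay below the median of probe set means. Among these markers of other cells, only the CD8 T cell gene Cd8b1 lay above the upper quartile. No marker of any of these types passed the test in a comparison.

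In SRG3 cKO against WT, 4 of the 33 adhesion genes passed the test. Itgav, the αv chain, and Cd48, a ligand of CD2 and the receptor 2B4, rose. Itgal, the αL chain of LFA-1, and Cd44 fell. These changes were small, from 1.20-fold to 1.28-fold. In RORγt KO against WT, 2 of 33 passed and both fell: Itga3, the α3 chain of a laminin receptor, by 1.87-fold, and Itgal by 1.20-fold. In the direct comparison 1 of 33 passed, Itga3, which was 1.66-fold higher in SRG3 cKO.

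The test was limma's moderated test in a single fit of all 9 arrays, with Benjamini-Hochberg adjustment over 22180 genes and a threshold of 0.05. In SRG3 cKO against WT, the 4 called adhesion genes were 12.1% of 33, where 0.523% of all genes passed (116 genes). With the replicate number as a block in all 9 arrays, 3 of 33 passed beside 195 of all genes. These were Itgal, Itgav and Cd44, without Cd48. With that block in only the 6 arrays compared, no adhesion gene passed in SRG3 cKO against WT. Without the block, the 2 that rose and the 2 that fell were 6.06% each, where 0.28% and 0.243% of all genes rose and fell. In RORγt KO against WT, 6.06% of adhesion genes passed, all downwards, where 1.04% of all genes passed, 0.694% upwards and 0.343% downwards. In SRG3 cKO against RORγt KO, 3.03% passed, upwards, where 1.28% of all genes passed, 0.595% upwards and 0.681% downwards. Each share rests on 1 to 4 genes, and the list was chosen with earlier results of these data known. With any 1 array left out, 0 or 1 of the 4 passed in SRG3 cKO against WT: Itgav alone without WT array 1 or any 1 RORγt KO array, and none without any of the other 5 arrays. In RORγt KO against WT Itga3 passed in all 9 such fits, joined by Itgal without SRG3 cKO array 1 and by Selplg without WT array 1. Of the 33 members, 13 lay above the upper quartile of probe set means and 1, Itgb6, below the lower quartile, where 6356 and 4338 of the 22180 genes lay.

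A looser view counts the genes whose 3 arrays in one group lay wholly above or below the 3 of the other. In SRG3 cKO against WT this held for 9 of 33 adhesion genes (27.3%) and for 13.6% of all genes. In RORγt KO against WT it held for 13 (39.4%) and for 14.3% of all genes. In the direct comparison it held for 12 (36.4%) and for 14.6% of all genes. Their differences centred near 0. The median log2 difference was -0.014 in SRG3 cKO against WT, 0.0013 in RORγt KO against WT and -0.015 in the direct comparison, beside -0.0061, -0.0027 and -0.0012 for all genes. Both comparisons with WT use the same 3 WT arrays, so a gene's differences in them are not independent.

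**Figure D1:**
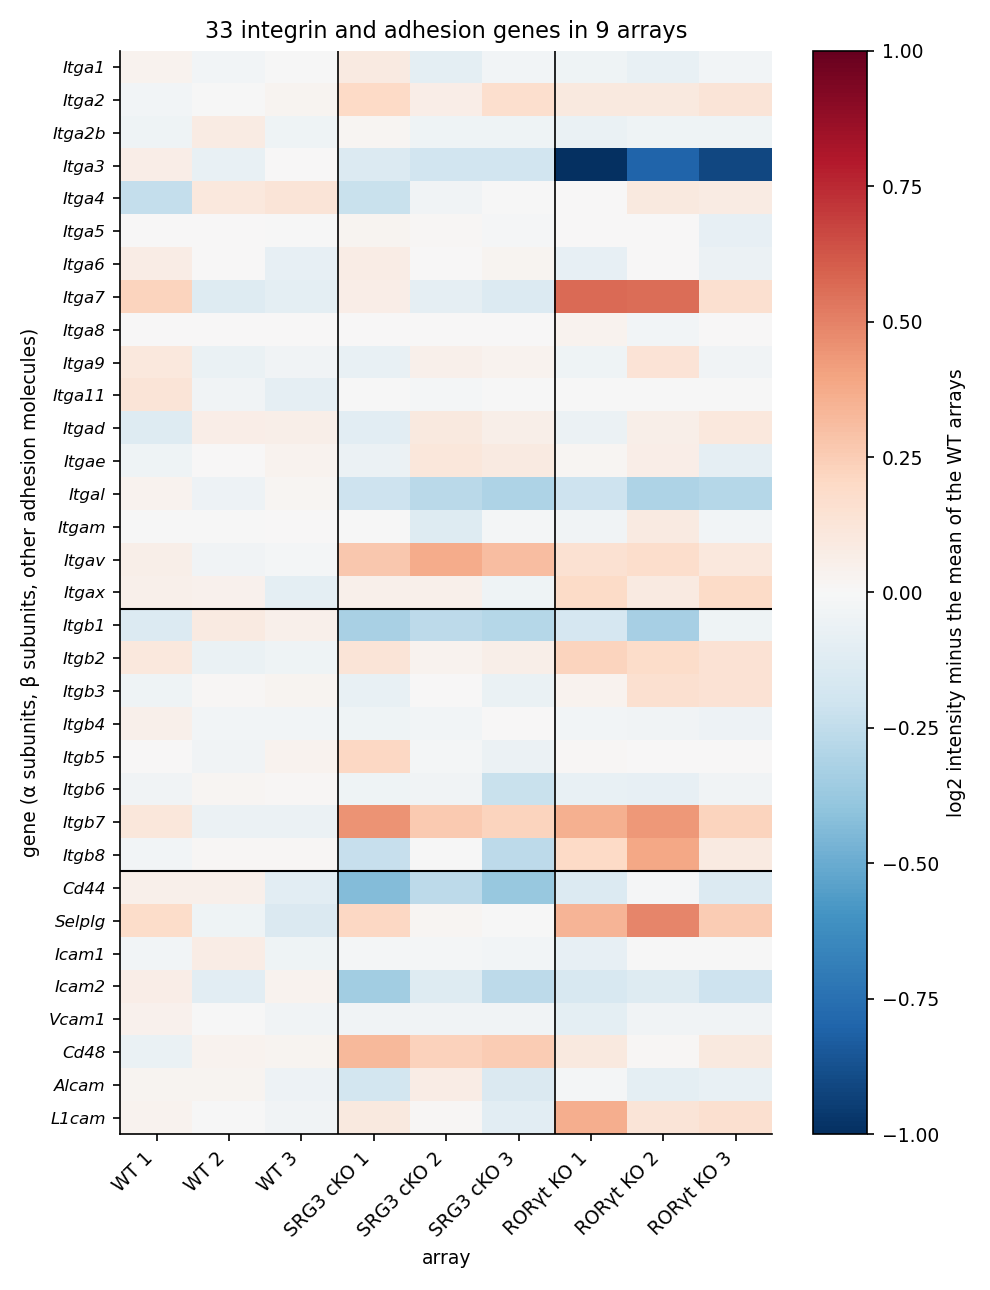
Each of the 33 measured adhesion genes (rows) in the 9 arrays (columns), coloured by its log2 intensity minus the mean of the 3 WT arrays; rows are ordered as α subunits, β subunits and other molecules. The deepest colour is the Itga3 row in the RORγt KO arrays, and most rows are pale throughout.

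Itga3 encodes α3, which pairs with β1 to bind laminins and is best known from epithelia. Its log2 values were 10.32, 10.17 and 10.26 in WT, 10.11, 10.05 and 10.05 in SRG3 cKO, and 9.25, 9.45 and 9.34 in RORγt KO. The 3 RORγt KO arrays lay below all other arrays by a wide margin, and the SRG3 cKO arrays lay just below the WT arrays. In RORγt KO against WT it fell by 0.90 (SE 0.057, 1.87-fold, adjusted p = 0.000143), which ranked 5 of 22180 genes by p. In SRG3 cKO against WT the difference was -0.17 (SE 0.057, adjusted p = 0.294) and did not pass. Directly compared, the level in SRG3 cKO was higher than in RORγt KO by 0.73 (SE 0.057, adjusted p = 0.000508), so the 2 knockouts differed from each other. Both differences passed under all 17 alternatives, with adjusted p between 8e-05 and 0.0355 in RORγt KO against WT. The sequence around the annotated starts of Itga3 is shown because it was the member that differed most. RefSeq (GRCm38.p6) gives 2 windows of 250 bases before to 50 after a start, on the minus strand of chromosome 11, at chr11:95076665-95076964 and chr11:95069149-95069448. Capitals mark matches, on the strand printed, to GGGCGG (the GC box bound by SP factors), TGTGGT (the RUNX core) and TGANTCA. The last is a loose form of the AP-1 site, with any base at N.
Itga3 upstream start: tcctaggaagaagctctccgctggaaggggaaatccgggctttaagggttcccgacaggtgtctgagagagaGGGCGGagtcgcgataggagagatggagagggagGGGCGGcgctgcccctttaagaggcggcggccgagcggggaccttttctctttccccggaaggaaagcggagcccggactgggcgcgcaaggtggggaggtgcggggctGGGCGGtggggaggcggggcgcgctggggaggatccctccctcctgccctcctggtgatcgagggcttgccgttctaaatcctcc
Itga3 downstream start: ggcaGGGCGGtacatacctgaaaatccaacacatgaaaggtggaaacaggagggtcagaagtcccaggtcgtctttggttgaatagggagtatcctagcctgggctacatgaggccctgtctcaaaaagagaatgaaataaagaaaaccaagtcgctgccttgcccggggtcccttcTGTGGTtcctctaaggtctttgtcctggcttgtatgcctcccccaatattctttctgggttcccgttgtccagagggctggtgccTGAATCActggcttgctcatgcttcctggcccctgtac
The upstream window holds 3 GC boxes, and the downstream window holds 1 GC box, 1 RUNX core and 1 AP-1 match. This AP-1 match, TGAATCA, lies after the annotated start. AGGTCA, the half-site bound by ROR factors, was in neither window on either strand, which says only that these letters are not in them.

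Itgal encodes αL of LFA-1, the main integrin of the contact between a T cell and an antigen-presenting cell. Its levels were 10.52, 10.44 and 10.51 in WT, 10.29, 10.23 and 10.18 in SRG3 cKO, and 10.29, 10.19 and 10.21 in RORγt KO. All 6 knockout arrays lay below the 3 WT arrays, and the 2 knockouts overlapped. It fell by 0.26 in both, with SE 0.045 and limma adjusted p of 0.0474 in SRG3 cKO and 0.0312 in RORγt KO. The direct difference was 0.0048, with a 95% interval of -0.096 to 0.11. These calls stand close to the threshold: with any 1 array left out, Itgal passed in 0 of 9 fits for SRG3 cKO (adjusted p 0.0644 to 0.186) and in 1 of 9 for RORγt KO (0.0411 to 0.135), the fit without SRG3 cKO array 1. The difference itself stayed between -0.29 and -0.24 in all alternatives.

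Its partner β2, encoded by Itgb2 and shared with αM, αX and αD, did not pass. Itgb2 levels were 10.60, 10.42 and 10.45 in WT, 10.62, 10.53 and 10.54 in SRG3 cKO, and 10.71, 10.67 and 10.63 in RORγt KO. The RORγt KO arrays all lay above the WT arrays, by 0.18 (adjusted p = 0.196), the opposite sign to Itgal. The other α chains of β2 are better known from myeloid and dendritic cells. Itgam and Itgad differed from WT by -0.049 to 0.038 in either knockout, and Itgax was 0.16 higher in RORγt KO (adjusted p = 0.257), with its arrays apart from those of WT. Markers of myeloid and dendritic cells averaged 6.70 to 6.76 and 7.10 to 7.17 in WT, and 6.73 to 6.76 and 7.12 to 7.21 in RORγt KO arrays. In bulk RNA, fewer cells of a type and less RNA per cell cannot be told apart.

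Itgav encodes αv, which pairs with β1, β3, β5, β6 or β8. Its levels were 10.11, 10.02 and 10.03 in WT, 10.32, 10.43 and 10.36 in SRG3 cKO, and 10.21, 10.23 and 10.16 in RORγt KO. The 3 genotypes did not overlap, with SRG3 cKO highest and RORγt KO between. It rose by 0.32 in SRG3 cKO (SE 0.044, 1.25-fold, limma adjusted p = 0.0216). The RORγt KO difference of 0.15 did not pass (adjusted p = 0.206), nor did the direct difference of 0.17 (adjusted p = 0.136). The call was lost without WT array 2 or 3 or any 1 SRG3 cKO array (adjusted p 0.0650 to 0.0993), and was kept without WT array 1 (0.34, adjusted p = 0.0268). Itgav has a second, dimmer probe set at 6.36 in WT, which was 0.095 higher in SRG3 cKO, and with the mean of both probe sets the difference was 0.21 (adjusted p = 0.145). Its start window, shown as that of the integrin gene that rose, is at chr2:83724147-83724446 on the plus strand, with its GC box in capitals.
Itgav start: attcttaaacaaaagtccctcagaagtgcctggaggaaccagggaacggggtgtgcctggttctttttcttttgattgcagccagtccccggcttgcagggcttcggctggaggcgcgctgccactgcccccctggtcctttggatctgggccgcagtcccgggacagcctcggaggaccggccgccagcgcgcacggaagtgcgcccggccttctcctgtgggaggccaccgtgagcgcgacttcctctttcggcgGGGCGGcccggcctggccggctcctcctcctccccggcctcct
This window holds 1 GC box, which lies after the annotated start, and no match to the other motifs.

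**Figure D2:**
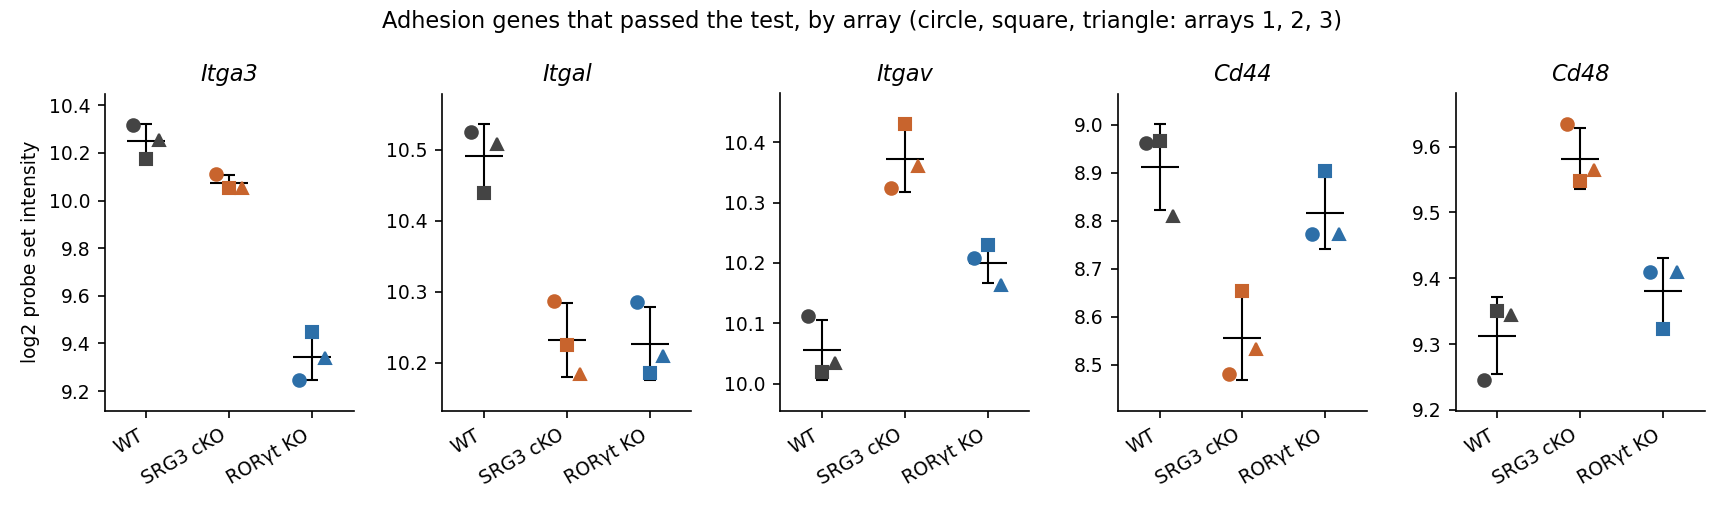
Log2 probe set intensity of the 5 adhesion genes that passed in any comparison, by genotype; each marker is 1 array, the bar the mean of 3 and the whiskers 1 SD. Each panel has its own axis, which does not start at 0. The RORγt KO arrays of Itga3 lie between 9.25 and 9.45, below all others, while the called shifts of the other genes run from -0.36 to 0.32.

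Of the β chains that pair with αv, none passed in any comparison. Itgb8, whose product with αv activates latent TGF-β, had levels of 7.73, 7.77 and 7.77 in WT, 7.53, 7.75 and 7.49 in SRG3 cKO, and 7.95, 8.14 and 7.84 in RORγt KO. RORγt KO arrays were all above WT and SRG3 cKO arrays, and the direct difference of -0.39 (SE 0.084) had the lowest adjusted p among members that did not pass, 0.067. It passed without SRG3 cKO array 2, where it was -0.47 with a limma adjusted p of 0.0427. Itgb3, the β chain of platelet and vitronectin receptors, was 0.11 higher in RORγt KO than in WT with no overlap (adjusted p = 0.349), and its platelet partner Itga2b differed by -0.051. Platelet markers averaged 6.49 to 6.55 in WT and 6.49 to 6.56 in RORγt KO arrays, with all 4 markers below the median probe set. Whether platelets had a part in the Itgb3 difference was not tested. Itgb5 and Itgb6 overlapped between all groups, with differences from WT of -0.10 to 0.042.

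Itgb1 encodes β1, the most widely shared β chain. Its levels were 9.75, 9.98 and 9.94 in WT, 9.56, 9.63 and 9.60 in SRG3 cKO, and 9.73, 9.56 and 9.85 in RORγt KO. SRG3 cKO arrays all lay below WT arrays, and RORγt KO arrays overlapped both. The differences of -0.29 in SRG3 cKO (SE 0.079, adjusted p = 0.197) and -0.18 in RORγt KO (adjusted p = 0.382) did not pass. The differences of the α partners of β1 in RORγt KO against WT ran from -0.90 for Itga3, which passed, to 0.43 for Itga7, which did not.

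Itga7 encodes the α7 chain of a laminin receptor of muscle. Its levels were 7.74, 7.39 and 7.42 in WT, 7.59, 7.43 and 7.39 in SRG3 cKO, and 8.09, 8.08 and 7.68 in RORγt KO. RORγt KO arrays 1 and 2 were high, while array 3 lay below WT array 1. The difference from WT was 0.43 (SE 0.12, adjusted p = 0.187) and from SRG3 cKO -0.48 as SRG3 cKO minus RORγt KO (adjusted p = 0.139), so neither passed. Without RORγt KO array 3 the direct difference was -0.61 and passed (limma adjusted p = 0.0426). Itga2, the α2 chain of a collagen receptor, was 0.15 higher in SRG3 cKO and 0.11 higher in RORγt KO than in WT, with no overlap and with adjusted p of 0.231 and 0.329.

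The remaining α partners of β1 changed in no comparison. Itga4, the α4 chain used in homing, had levels of 8.95, 9.30 and 9.32 in WT, 8.97, 9.16 and 9.18 in SRG3 cKO, and 9.20, 9.29 and 9.27 in RORγt KO. WT array 1 and SRG3 cKO array 1 were both low, and the WT spread of 0.206 (SD, n = 3) was the largest of any member in that group. Its differences from WT were -0.088 and 0.062, each with a 95% interval that spans 0. Itga1, Itga5, Itga6, Itga8, Itga9 and Itga11 differed from WT by -0.051 to 0.033. For Itga8, 7 of 9 arrays held the same deposited value, and for Vcam1 6 of 9 did. At least 2 identical values occurred in 20 of 33 members (60.6%) and in 56% of all genes, so repeated values are common throughout the deposited table. Itgb4, the partner of α6 in epithelia, was 0.022 and 0.040 below WT, and its RORγt KO arrays did not overlap those of WT (adjusted p = 0.722).

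Itgb7 encodes β7, which with α4 binds the gut addressin MAdCAM-1 and with αE binds E-cadherin. Its levels were 8.75, 8.58 and 8.58 in WT, 9.09, 8.90 and 8.86 in SRG3 cKO, and 8.99, 9.07 and 8.86 in RORγt KO. Both knockouts lay above all WT arrays, by 0.31 (SE 0.077, adjusted p = 0.152) and 0.34 (adjusted p = 0.0929). Neither passed, and the difference between the 2 knockouts was -0.025 with a 95% interval of -0.20 to 0.15. Neither of its α partners passed: Itga4 is given above, and Itgae differed from WT by 0.049 and -0.0013.

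**Figure D3:**
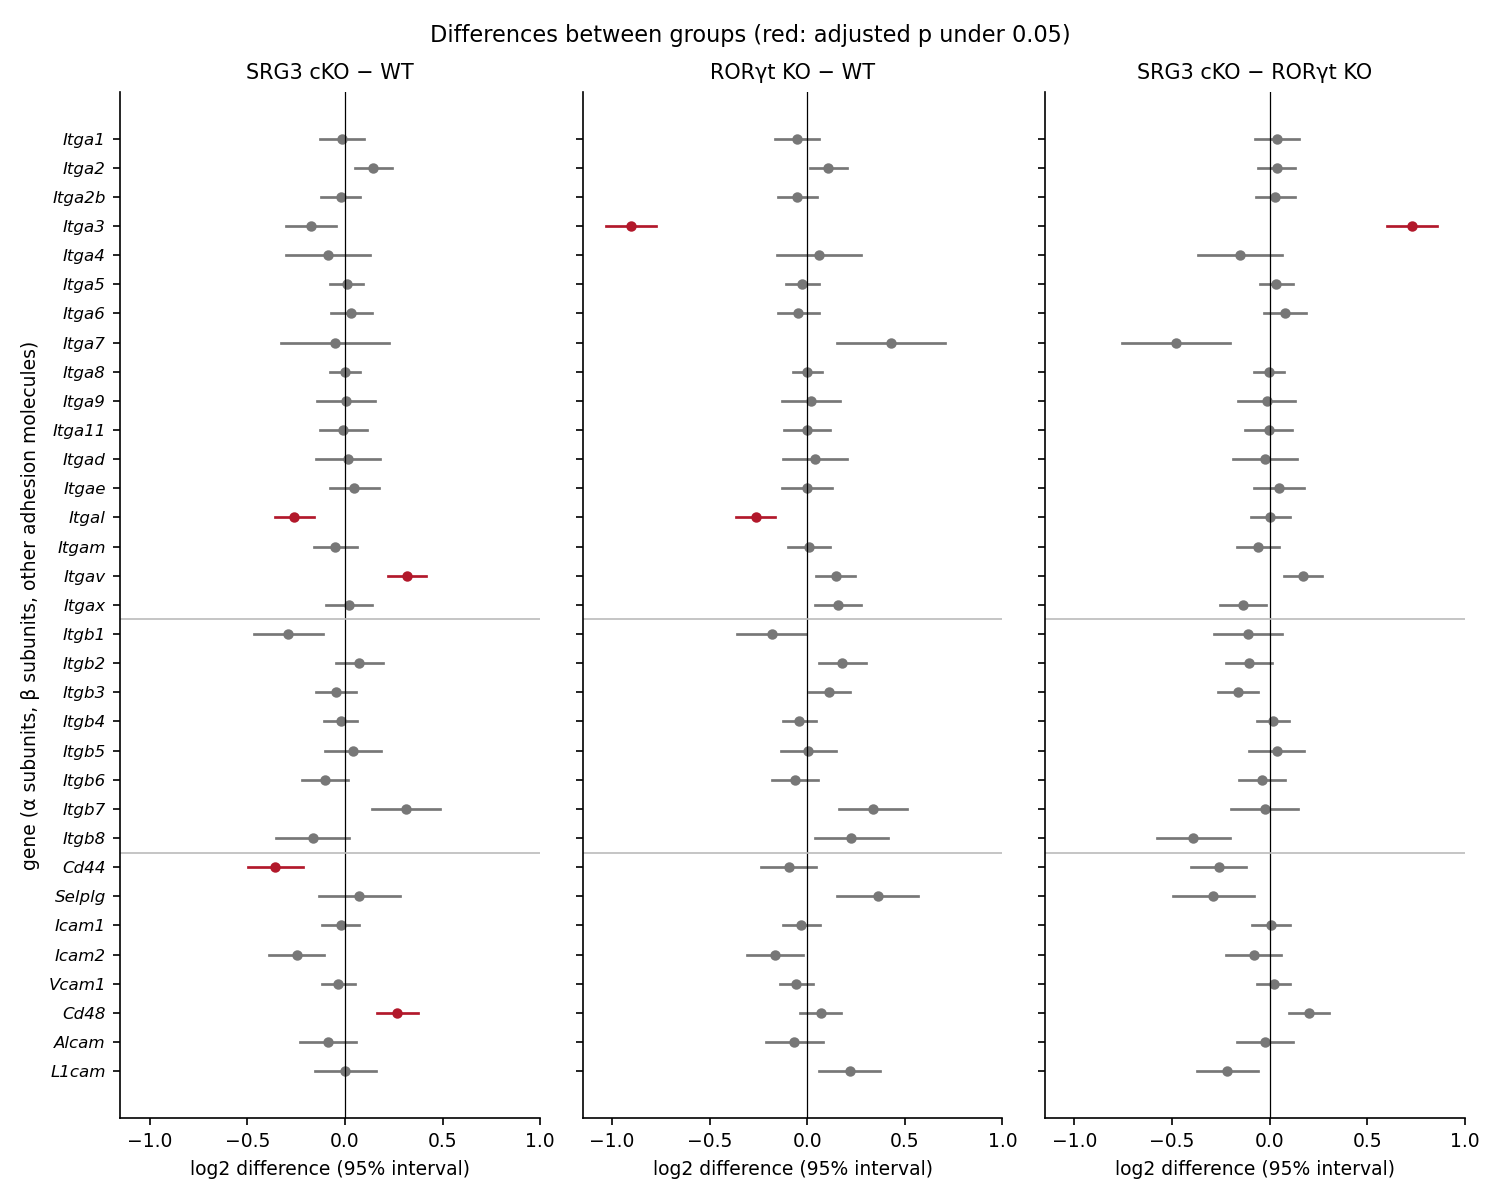
Log2 differences of the 33 adhesion genes in the 3 comparisons, as points with their 95% intervals from the fit; red marks an adjusted p under 0.05. In all, 7 points are red, and those of Itga3, at -0.90 and 0.73, lie farthest from 0.

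Cd44 encodes the hyaluronan receptor whose surface level defines naive and effector T cells; low surface CD44 was also a criterion of the sort before culture, in every group. Its levels were 8.96, 8.97 and 8.81 in WT, 8.48, 8.65 and 8.53 in SRG3 cKO, and 8.77, 8.90 and 8.77 in RORγt KO. SRG3 cKO arrays lay below all other arrays, and RORγt KO overlapped WT. It fell by 0.36 in SRG3 cKO (SE 0.063, 1.28-fold, limma adjusted p = 0.0488) and differed by -0.096 in RORγt KO (adjusted p = 0.585). The direct difference of -0.26 did not pass (adjusted p = 0.112). With 1 array left out the call in SRG3 cKO was kept in 0 of 9 fits (adjusted p 0.0604 to 0.181), while the difference stayed between -0.41 and -0.32.

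Cd48 is a GPI-anchored member of the CD2 family that binds CD2 on other T cells. Its levels were 9.24, 9.35 and 9.34 in WT, 9.63, 9.55 and 9.56 in SRG3 cKO, and 9.41, 9.32 and 9.41 in RORγt KO. SRG3 cKO arrays lay above all other arrays. It rose by 0.27 in SRG3 cKO (SE 0.046, 1.21-fold, limma adjusted p = 0.0461), and with the replicate number as a block the adjusted p was 0.0559. With 1 array left out it passed in 0 of 9 fits (0.0571 to 0.158). The RORγt KO difference of 0.068 (adjusted p = 0.595) and the direct difference of 0.20 (adjusted p = 0.0896) did not pass. The start windows of Cd44 (chr2:102901616-102901915, minus strand) and Cd48 (chr1:171681742-171682041, plus strand) are shown as those of the 2 non-integrin members that changed, the first downwards and the second upwards.
Cd44 start: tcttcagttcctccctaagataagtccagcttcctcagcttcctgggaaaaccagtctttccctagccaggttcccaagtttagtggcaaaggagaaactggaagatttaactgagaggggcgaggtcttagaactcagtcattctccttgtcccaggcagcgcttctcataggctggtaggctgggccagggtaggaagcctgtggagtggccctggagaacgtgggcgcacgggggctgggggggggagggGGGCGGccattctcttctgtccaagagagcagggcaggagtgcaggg
Cd48 start: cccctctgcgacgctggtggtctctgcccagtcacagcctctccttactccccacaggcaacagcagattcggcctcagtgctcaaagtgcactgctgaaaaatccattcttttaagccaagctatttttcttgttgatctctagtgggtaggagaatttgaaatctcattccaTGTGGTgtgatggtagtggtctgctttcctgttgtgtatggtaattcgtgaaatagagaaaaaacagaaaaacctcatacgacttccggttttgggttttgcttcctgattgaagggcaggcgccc
In capitals, the Cd44 window has 1 GC box, after the start, and the Cd48 window has 1 RUNX core 76 bases before the start. Across the 26 RefSeq windows of the 23 members matched, a GC box was in 14 (53.8%), a RUNX core in 4 (15.4%), an AP-1 match in 3 (11.5%) and the ROR half-site AGGTCA in 0. Among all 32817 windows of this length, on both strands, the shares were 35.6%, 16.8%, 7.81% and 16.3%.

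Selplg and Icam2 separated from WT without passing. PSGL-1, from Selplg, lets T cells roll on selectins. Its levels were 10.69, 10.46 and 10.37 in WT, 10.71, 10.53 and 10.50 in SRG3 cKO, and 10.85, 11.00 and 10.76 in RORγt KO. RORγt KO arrays lay above all others, by 0.36 over WT (SE 0.093, adjusted p = 0.132), and a second probe set gave 0.22. Without WT array 1, the highest of its group, the difference was 0.45 and passed (limma adjusted p = 0.0427). Icam2, a ligand of LFA-1, had levels of 7.81, 7.64 and 7.78 in WT, 7.39, 7.61 and 7.48 in SRG3 cKO, and 7.58, 7.61 and 7.54 in RORγt KO. Its arrays in both knockouts lay below those of WT, with differences of -0.25 and -0.17 and adjusted p of 0.173 and 0.321. L1cam, a homophilic adhesion molecule of neurons, was 0.22 higher in RORγt KO than in WT with no overlap (adjusted p = 0.235). Icam1 and Vcam1, ligands of LFA-1 and of α4 integrins, and Alcam, the ligand of CD6, differed from WT by -0.088 to -0.023.

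**Figure D4:**
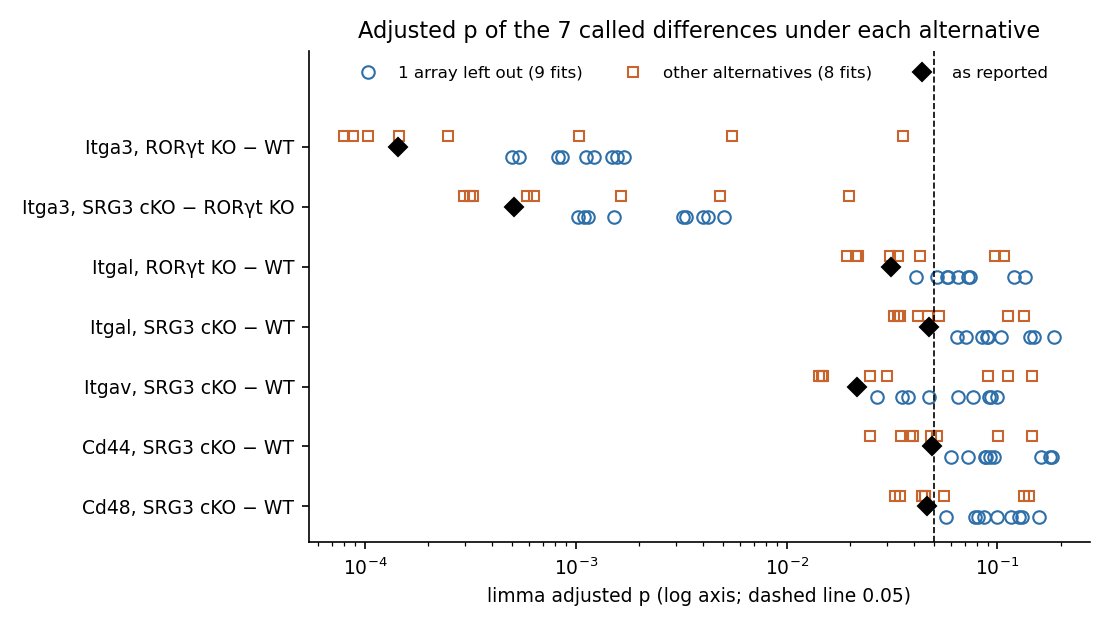
Adjusted p (log axis) of the 7 called differences as reported (diamonds), with 1 array left out (circles, 9 fits) and under the other alternatives (squares, 8 fits); the dashed line is 0.05. The symbols of Itga3 all lie left of the line, from 8e-05 to 0.0355, whereas most circles of the other genes lie right of it.

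Adhesion also depends on molecules outside this family, given here from lists of related genes. Of 41 measured genes that activate integrins or signal from them, 1 rose in SRG3 cKO against WT and none passed limma's test in RORγt KO against WT, where 12 had an unadjusted p under 0.05 (12.7% of all genes did). For SRG3 cKO against WT these were 9 of 41, beside 11.2% of all genes, and in the direct comparison also 9, beside 11.1%. The list's median differences were 0.029 and -0.0055, and 0.010 in the direct comparison, close to the medians of all genes given above. The gene that rose was Fyb, which encodes the adaptor ADAP that links the T cell receptor to LFA-1. Its levels were 9.05, 9.12 and 9.06 in WT, 9.76, 9.59 and 9.59 in SRG3 cKO, and 9.23, 9.37 and 9.25 in RORγt KO. It rose by 0.57 in SRG3 cKO (SE 0.057, 1.48-fold, limma adjusted p = 0.00423), and in the direct comparison it was 0.36 higher in SRG3 cKO (adjusted p = 0.0171). There Cyth1, whose product cytohesin-1 binds the β2 tail, was 0.35 higher (adjusted p = 0.0161), and Vav1, which acts in T cell receptor signalling, was 0.20 lower (adjusted p = 0.0440).

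Of 29 measured ligands of integrins and CD44, none passed in any comparison, with 0, 2 and 4 at an unadjusted limma p under 0.05, where 11.2%, 12.7% and 11.1% of all genes were. Their medians were -0.022, 0.0006 and -0.022. The largest of their differences was that of Lrrc32, which encodes GARP, the surface anchor of latent TGF-β, at -0.29 in SRG3 cKO minus RORγt KO (adjusted p = 0.164). Of 19 genes of selectins and of the glycosylation of PSGL-1, 1 passed: Selp, which encodes P-selectin, rose in RORγt KO against WT. The other comparisons of this list each had 4 genes at an unadjusted p under 0.05, where 11.2% and 11.1% of all genes were, and its medians lay between -0.021 and 0.015. Selp levels were 8.06, 7.55 and 7.60 in WT, 7.97 to 8.17 in SRG3 cKO, and 8.38, 8.66 and 8.46 in RORγt KO, a rise of 0.76 (SE 0.13, 1.70-fold, limma adjusted p = 0.0299). WT array 1 was the highest of its group, and all RORγt KO arrays lay above the others. P-selectin is best known from platelets and endothelium. All 4 platelet markers and 4 of 6 stromal and endothelial markers lay below the median of probe set means. Whether such cells had a part in the Selp difference was not tested.

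In the CD2 and SLAM family, 0 of 14 passed limma's test against WT in either knockout, with 4 and 3 at an unadjusted p under 0.05, where 11.2% and 12.7% of all genes were, and medians of 0.028 and -0.0008. For the direct comparison 2 had such a p, beside 11.1% of all genes. Sh2d1a, which encodes the SLAM adaptor SAP, was 0.32 higher in SRG3 cKO than in RORγt KO (SE 0.047, limma adjusted p = 0.0123). Of 24 other immunoglobulin-like adhesion molecules with CD6, Tigit rose and Crtam fell in RORγt KO against WT, and none passed in SRG3 cKO against WT, where 5 had an unadjusted p under 0.05 (11.2% of all genes did). In RORγt KO against WT 6 of them had such a limma p, and in the direct comparison 8, beside 12.7% and 11.1% of all genes. The list's medians were 0.019 in RORγt KO and -0.018 in SRG3 cKO. Tigit, an inhibitory receptor for nectin-like ligands, had levels of 7.97, 7.85 and 7.72 in WT, 7.82, 7.81 and 7.65 in SRG3 cKO, and 8.50, 8.79 and 8.41 in RORγt KO, a rise of 0.72 over WT (SE 0.098, adjusted p = 0.0140). Cd226, which encodes the activating receptor DNAM-1 that shares ligands with TIGIT, had levels of 8.04, 8.20 and 8.04, then 8.42, 8.59 and 8.25, then 6.93, 7.73 and 7.31 in the same order. The directions of these receptors were opposite in the direct comparison: Cd226 was 1.10 higher in SRG3 cKO than in RORγt KO (SE 0.17, adjusted p = 0.0148) and Tigit 0.81 lower (SE 0.098, adjusted p = 0.00482). Against WT, Cd226 was -0.77 in RORγt KO and did not pass (adjusted p = 0.0798). Crtam, a receptor for another nectin-like molecule, fell by 0.62 in RORγt KO (SE 0.10, adjusted p = 0.0250).

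Sheddases cut adhesion molecules from the surface, and the last list held 13 genes of such proteases and of their inhibitors. None passed limma's test against WT, with 2 at an unadjusted p under 0.05 in SRG3 cKO and 7 in RORγt KO. Of all genes 11.2% and 12.7% were. For the direct comparison 4 of the 13 had such a p, beside 11.1% of all genes. The medians against WT were -0.051 and -0.11, lower than those of all genes, and they pool proteases with inhibitors. Timp1 encodes an inhibitor of some of these proteases. Its levels were 9.51, 9.20 and 9.59 in WT, 9.47, 9.12 and 9.65 in SRG3 cKO, and 10.11, 10.45 and 10.01 in RORγt KO. RORγt KO arrays lay above all others, and the direct difference of -0.78 passed (SE 0.15, limma adjusted p = 0.0487), while that against WT of 0.76 did not (adjusted p = 0.0596). Most of these calls outside the family were lost in some fits with 1 array left out, also where that array was outside the comparison. In such fits fewer arrays estimate the spread. With 1 array left out, Fyb against WT and Tigit in the direct comparison passed in 9 of 9 fits, and the others in 0 to 7. Timp1 passed in none (limma adjusted p 0.0580 to 0.173), Vav1 only without WT array 1, and Selp only without WT array 1 or SRG3 cKO array 1. Without RORγt KO array 1 the calls of Tigit and Crtam against WT and of Fyb and Cyth1 in the direct comparison were lost. Without RORγt KO array 3 those of Cd226, Fyb and Cyth1 in the direct comparison were lost, and without RORγt KO array 2 those of Crtam and Sh2d1a. Without WT array 2 or 3 those of Tigit and Crtam against WT were lost. Without SRG3 cKO array 1 those of Cd226, Cyth1 and Sh2d1a were lost, without array 2 that of Cd226, and without array 3 those of Cyth1, Sh2d1a and Crtam. Under the 8 other alternatives Tigit in the direct comparison passed in all 8, and the other 10 calls in 5 to 7. Those lost were lost with only the 6 arrays compared or with the replicate block, as was Fyb against WT (adjusted p = 0.0655 with the block in 6 arrays). Over these 17 alternatives no difference changed sign.

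**Figure D5:**
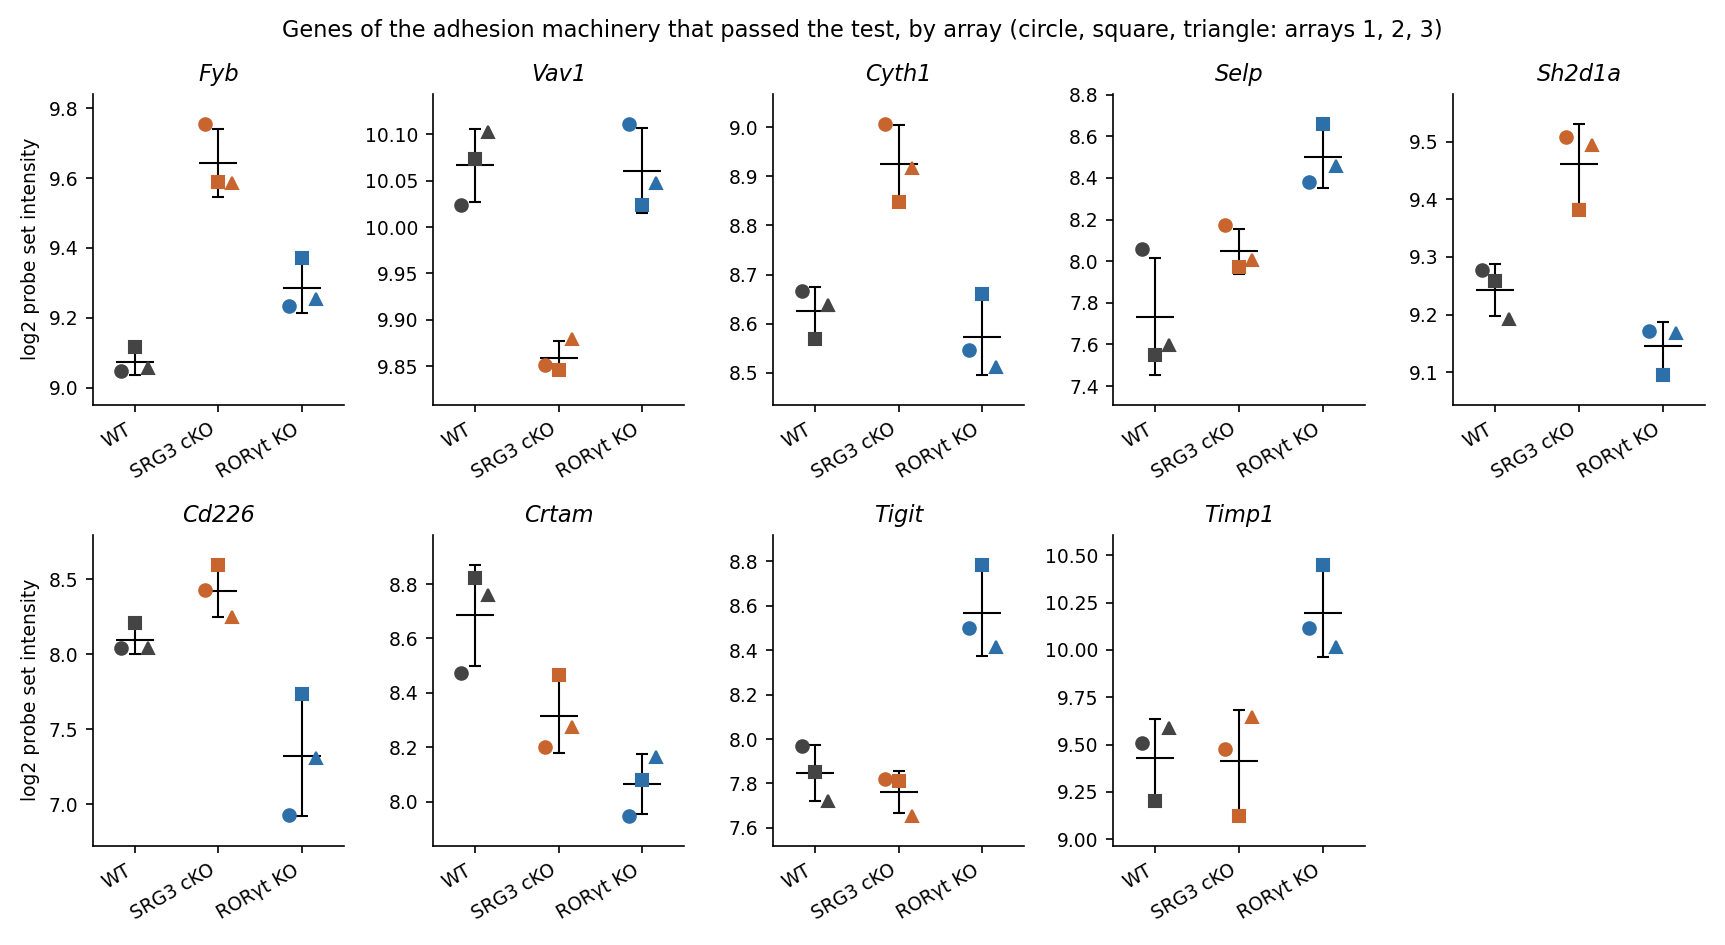
Log2 probe set intensity, by genotype, of the 9 genes outside the family that passed in any comparison; each marker is 1 array, the bar the mean of 3 and the whiskers 1 SD, and each panel has its own axis, which does not start at 0. Fyb lies highest in SRG3 cKO (9.59 to 9.76), while Tigit, Selp and Timp1 lie highest in RORγt KO.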

How the data were processed

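Samples, groups and culture were taken from the labels. The deposited table holds log2 intensities of 41345 probe sets, and the labels' protocols name a GeneChip labelling kit. That the scale is log2 was read from the range of the values. The authors' background correction, probe summary and normalization are not given in the sources used here. Scanner output was not used here. No sample column was left unused (0). The labels give IL-6 at 30 µg/ml, reported as written there.

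Only the 23521 probe sets with 1 gene symbol were used, leaving out 1814 with several and 16010 with none. RefSeq names (GRCm38.p6) replaced old symbols through gene IDs, of which 23328 matched. Where a gene had several probe sets (1082 genes), that of the highest mean stood for it, and 22180 genes remained. One limma 3.58.1 model (R 4.3.3) was fitted to all 9 arrays, and p-values of each comparison were adjusted over all genes after Benjamini and Hochberg (threshold 0.05). A gene rose, fell or changed only where it passed. SE is the model's standard error. On simulated data with 50 genes changed by each size among 22180, for SRG3 cKO against WT, 42%, 92% and 100% of log2 changes of 0.25, 0.5 and 1 were recovered, with 5 false among 172 calls. The simulated noise was normal, independent between arrays and without a replicate effect, and each gene's spread came from the fitted model. These shares therefore rest on the model's own assumptions and need not hold for the real arrays. The number of arrays, 3 per group, limits the precision.

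All listed genes are named. Of the other lists, genes past the threshold are named. The genes and lists were chosen with earlier results of these data known. Pairing by replicate number was checked by the correlation of deviations from group means: for SRG3 cKO and WT it was 0.287, 0.186 and 0.116, so these were taken as paired. With the replicate block 195 genes passed there in place of 116. The other 2 comparisons each held a value near 0 (-0.00527 and -0.00544) and were not taken as paired. Alternatives covered normalization, dim probe sets (lowest 25%), choice of probe set, variance model, array weights, arrays in the fit, the replicate block, a threshold of 0.1 and leaving out each array.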

Additional observations from a re-analysis of the deposited data

How the results depend on the processing

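Of the members' differences, the 33 with an unadjusted p under 0.05 were followed under 17 alternatives, and 0 reversed; 497 results kept their side of the threshold, 54 no longer passed and 10 newly passed. Among the other 24, 19 and 23 differences of SRG3 cKO against WT, RORγt KO against WT and the direct comparison, up to 5, 3 and 6 turned sign under an alternative, the 6 without SRG3 cKO array 1, and 0 were called. Those newly passing were Itgb7, Itga7, Itgb8, Cd44 and Selplg in RORγt KO against WT or the direct comparison. Differences near 0.3 lie close to what 3 arrays per group can show.

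Genes called in SRG3 cKO against WT, RORγt KO against WT and the direct comparison were 116, 230 and 283. With a threshold of 0.1 they were 220, 400 and 433, and with only the 6 arrays compared 13, 43 and 142, where fewer arrays estimate the spread. With 1 array left out they ranged from 18 to 87, 45 to 322 and 138 to 261. Members called were 4, 2 and 1. With 1 array left out they were 0 to 1, 1 to 2 and 1 to 2. With only the 6 arrays compared they were 0 in SRG3 cKO against WT and 1 in RORγt KO against WT. In the direct comparison 3 passed at a threshold of 0.1 (Itga3, Itgb8 and Cd48) and 2 without dim probe sets (Itga3 and Itgb8).

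With the replicate block in all 9 arrays, genes called were 195, 374 and 368, and in the 6 arrays compared 32, 63 and 131. With the replicate block in all 9 arrays, 4 members passed in RORγt KO against WT (Itga3, Itgal, Itga7 and Itgb7) and 4 in the direct comparison (Itga3, Itga7, Itgb8 and Cd44), and in the 6 arrays 0, 1 and 2 passed. In SRG3 cKO against WT the block in all 9 arrays changed no member's call but that of Cd48. In no comparison do the main values treat the replicate numbers as pairs. The causes of these shifts were not tested.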
